A study of Rattus norvegicus with 10 samples.

Results

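Plau, Plaur, Plat, F3, Thbd, Vwf, Adamts13, Procr and Tfpi are 9 genes that start, limit or dissolve blood clots, and their RNA was followed in rat heart after coronary artery ligation, with and without the compound BT2. They were chosen by name, from a list of coagulation and fibrinolysis genes, with earlier results of these data known. All 9 are among the 31580 genes of the tissue count table and the 39537 features of the nuclear count matrices, and all 9 were among the 15216 tissue genes with enough counts to be tested. RNA came from the area at risk, the territory of the ligated left coronary artery. Tissue libraries formed 4 groups of 2: vehicle at 4 h, BT2 at 4 h, vehicle at 24 h and BT2 at 24 h. Nuclear libraries were 1 from vehicle and 1 from BT2 at 24 h. Times run from ligation in the titles but from ischaemia-reperfusion injury in the series text. Rats of every group, vehicle included, therefore carried the injury, and no uninjured group was analysed here. BT2 was dosed at 100 mg/kg for the nuclear library. For the tissue libraries the sources used here give no dose, and for no library a strain, sex or age. No source used here says whether replicates were separate animals, so p-values measure the spread between these libraries, which may be technical.

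Clotting is triggered when tissue factor, the product of F3, meets plasma factors at a breached vessel wall. Tissue factor pathway inhibitor (Tfpi) limits that trigger, and thrombomodulin (Thbd) and the endothelial protein C receptor (Procr) turn thrombin and protein C into a brake on clotting. Von Willebrand factor (Vwf) tethers platelets and is cut into smaller multimers by the protease Adamts13, while tissue-type (Plat) and urokinase-type (Plau) plasminogen activators generate the clot-dissolving enzyme plasmin, the latter at its cell-surface receptor Plaur.

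Tissue libraries held 10397310 to 24480984 counts and the 9 genes together 10396 to 21945 counts per library. Levels are given as CPM, the count relative to the library total, scaled for library composition, and log2 fold changes are followed by ± 1 standard error from edgeR's quasi-likelihood test. A gene was called when its Benjamini-Hochberg adjusted p, over all 15216 genes, was under 0.05. Cardiomyocyte markers (8 of 8 measured) summed to between 20158 and 76987 CPM, as fits the labelled tissue. With BT2 at 24 h, 8 of 8 cardiomyocyte markers and 5 of 6 capillary endothelial markers were called higher, where 18.9% of all genes were. Of the 8 macrophage and monocyte markers 4 were called lower (Cd68, Csf1r, Mrc1 and Itgam) and 1 higher (C1qa), where 20.7% of all genes were lower. At 4 h, 4 of 7 neutrophil markers were called lower with BT2, where 9.73% of all genes were.

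At 4 h, 4 of the 9 genes were lower with BT2 (Plaur, Plau, F3 and Thbd) and 0 were higher, against 9.73% of all tested genes called lower, 6.67% higher and 16.4% in either direction. The 9 were chosen with earlier results of these data known, so the counts given here do not test them as a set. DESeq2 also called 0 of the 9 higher at 4 h, and Tfpi alone was higher at an unadjusted p under 0.05, at 0.0182. At 24 h, 4 were lower (Plau, Plaur, Procr and Adamts13) and 2 higher (Vwf and Tfpi), against 20.7% and 18.9% of all genes, 39.5% in all. The median log2 fold change of the 9 was -0.24 at 4 h and 0.06 at 24 h, beside 0.00 and -0.01 over all genes tested. The effect of BT2 differed between the times for 1 of the 9, F3, and in the upward direction, against 7.14% of all genes (4.72% upward and 2.43% downward). Groups of 2 libraries that do not overlap were common, at 59.2% of all genes at 4 h and 77.3% at 24 h, so separation of the groups is the usual case at both times.

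**Figure D1:**
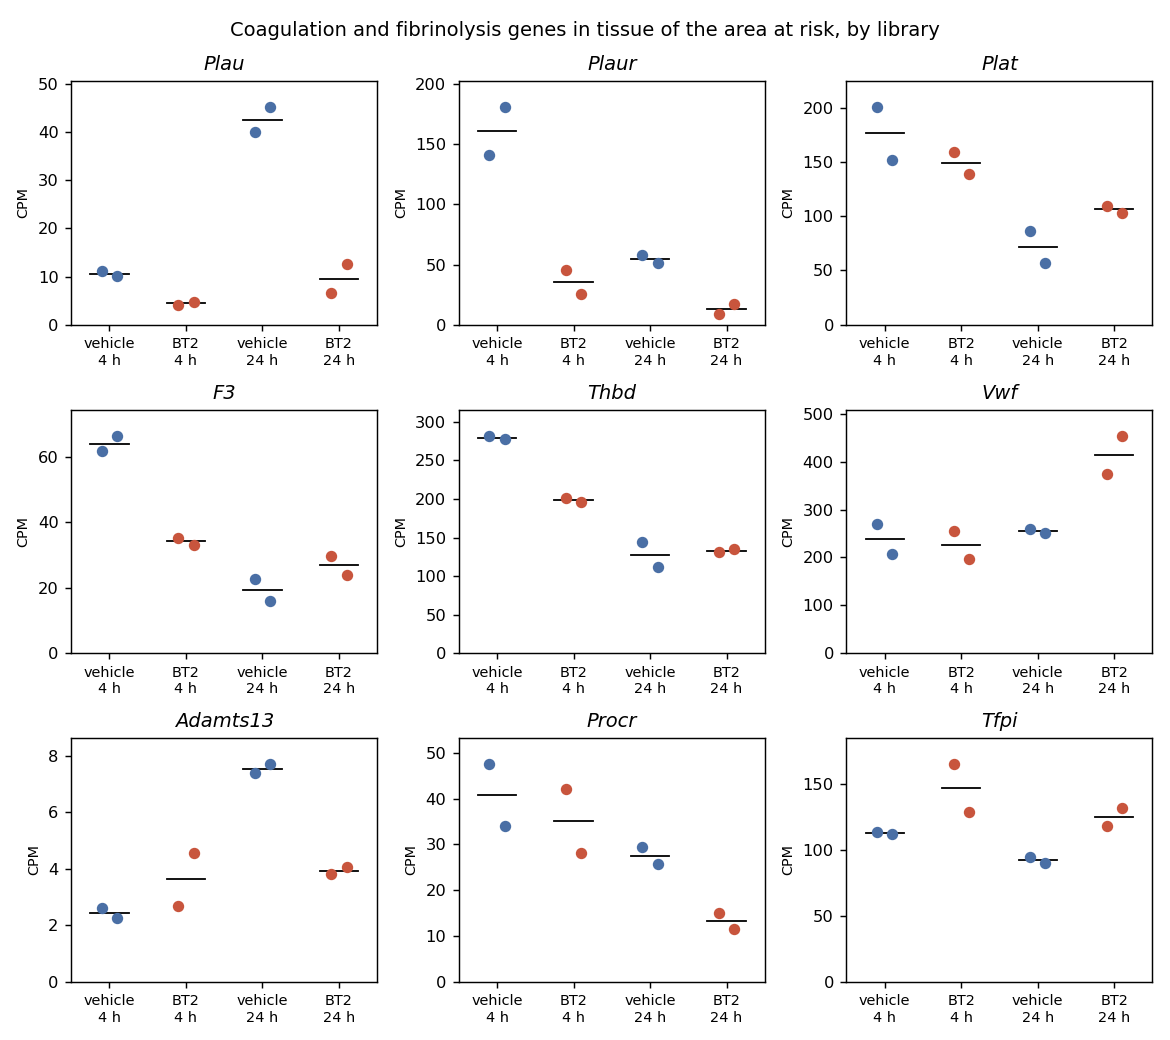
CPM of the 9 genes in each of the 8 tissue libraries, with points for libraries, horizontal lines for the means of 2 and each vertical axis starting at 0. Plau and Plaur lie lower with BT2 at both times, F3 and Thbd lie lower with BT2 at 4 h, and Adamts13 and Procr lie lower and Vwf higher with BT2 at 24 h.

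**Figure D2:**
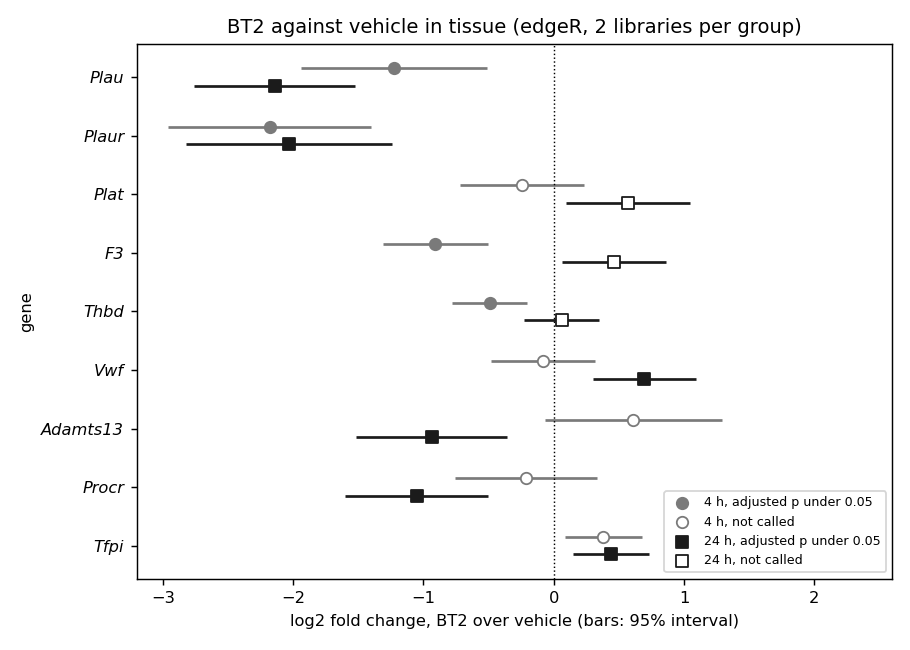
Log2 fold change of BT2 over vehicle for the 9 genes at 4 h (circles) and 24 h (squares), with 95% intervals from the edgeR fit and filled symbols for an adjusted p under 0.05. Plaur lies near -2 at both times, and F3 lies at -0.91 at 4 h and 0.46 at 24 h.

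The 4 genes called lower at 24 h are also 4 of the 5 that have a start site in the RefSeq promoter table. Their upstream sequences are shown because each was called lower at that time, as 20.7% of all tested genes were. A shared control of the 4 genes was not tested. They are on the gene's strand, 5′ to 3′, and each ends at the base before the annotated start. The coordinates are those of the rat build GRCr8, which is not the build of the counts. The windows lie at chr15:3511988-3512237 on the minus strand for Plau, chr1:89181113-89181362 on the plus strand for Plaur, chr3:164714477-164714726 on the plus strand for Procr and chr3:30697104-30697353 on the plus strand for Adamts13 (the first of its 7 listed starts). Capitals mark letters that match a searched motif.
Plau: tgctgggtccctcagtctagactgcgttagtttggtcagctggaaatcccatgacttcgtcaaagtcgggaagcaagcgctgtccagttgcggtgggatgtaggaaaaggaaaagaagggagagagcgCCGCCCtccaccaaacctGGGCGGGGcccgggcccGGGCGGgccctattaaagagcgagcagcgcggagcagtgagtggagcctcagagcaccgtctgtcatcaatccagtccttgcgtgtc
Plaur: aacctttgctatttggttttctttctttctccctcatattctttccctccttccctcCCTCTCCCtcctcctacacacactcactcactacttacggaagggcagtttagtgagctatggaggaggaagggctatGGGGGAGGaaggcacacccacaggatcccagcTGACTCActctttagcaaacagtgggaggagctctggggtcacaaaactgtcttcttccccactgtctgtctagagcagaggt
Procr: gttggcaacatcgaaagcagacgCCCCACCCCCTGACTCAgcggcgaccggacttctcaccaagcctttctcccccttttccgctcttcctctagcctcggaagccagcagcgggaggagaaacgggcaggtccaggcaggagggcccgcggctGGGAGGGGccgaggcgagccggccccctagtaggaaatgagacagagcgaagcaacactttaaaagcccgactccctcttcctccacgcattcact
Adamts13: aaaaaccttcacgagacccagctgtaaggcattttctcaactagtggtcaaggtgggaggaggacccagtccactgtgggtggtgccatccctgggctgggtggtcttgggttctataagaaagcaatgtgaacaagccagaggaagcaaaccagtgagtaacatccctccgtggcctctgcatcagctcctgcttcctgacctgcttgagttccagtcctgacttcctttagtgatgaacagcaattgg

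Both strands of each 250-base window were searched for GCGNGGGCG (the EGR1 motif), TGANTCA (AP-1), GGGCGG (SP1), CCNCNCCC (KLF), TATAAA (the TATA box) and the NF-kB motif, and the SP1 and KLF letters can overlap. Plaur holds the AP-1 letters TGACTCA from 83 to 77 bases before its start. Procr holds the same letters from 217 to 211 bases before its start, directly after a pair of overlapping KLF matches. The AP-1 letters occur in 6.34% of all 33469 promoter windows of this length in the table. Plau holds the SP1 letters at 3 places between 122 and 82 bases before its start, and 30.5% of windows hold them. KLF letters, present in 42.8% of windows, occur before Plau, Plaur, Procr and Tfpi. The Adamts13 window holds no capitals, and no EGR1, TATA or NF-kB letters were found before any of the 5 genes. These are matches of letters in the reference sequence and not measured sites.

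Plau, the urokinase-type activator, was lower with BT2 at both times. It stood at 11.2 and 10.02 CPM with vehicle and 4.20 and 4.80 CPM with BT2 at 4 h. At 24 h it stood at 39.9 and 45.2 CPM with vehicle and 6.51 and 12.7 CPM with BT2. The vehicle libraries were above the BT2 libraries at both times, and the 24 h vehicle libraries were the highest of all 8. The change was -1.22 ± 0.31 on the log2 scale at 4 h (edgeR adjusted p = 0.0345) and -2.14 ± 0.27 at 24 h (edgeR adjusted p = 0.00124), a 4.42-fold difference. In tissue RNA, fewer cells of a type and less RNA per cell cannot be told apart. At 24 h the summed CPM of the 8 macrophage and monocyte markers measured was 958 and 905 with vehicle and 523 and 607 with BT2. Plau equalled 4.17% and 4.99% of that sum with vehicle and 1.24% and 2.09% with BT2. The part of cell numbers in the Plau difference was not tested. The 24 h call held in all 8 fits that each left out 1 library. The 4 h call was lost without any 1 of the 4 h libraries or of the 24 h vehicle libraries, with adjusted p up to 0.136 and log2 fold changes from -1.33 to -1.14.

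Plaur, the receptor that holds urokinase at the cell surface, had the largest 4 h difference of the 9. Its level was 140.9 and 180.8 CPM with vehicle and 45.5 and 25.9 CPM with BT2 at 4 h. At 24 h it was 57.8 and 51.4 CPM with vehicle and 9.36 and 17.2 CPM with BT2. The groups did not overlap at either time, and the lowest 2 libraries were those of BT2 at 24 h. The log2 fold change was -2.18 ± 0.33 at 4 h (edgeR adjusted p = 0.0119) and -2.03 ± 0.34 at 24 h (edgeR adjusted p = 0.00367), differing between the times by 0.15 ± 0.46 (edgeR adjusted p = 0.876; 95% interval -0.93 to 1.22). The 24 h call held without each library in turn, and the 4 h call was lost without vehicle replicate 2 or BT2 replicate 2 of that time (adjusted p up to 0.0652). It also missed the threshold without the filter on low counts, at an adjusted p of 0.0517. The 7 neutrophil markers summed to 492 and 1558 CPM with vehicle and 181 and 263 CPM with BT2 at 4 h. Plaur equalled 28.6% and 11.6% of that sum with vehicle and 25.1% and 9.84% with BT2, and these ranges overlap. Relative to the 8 macrophage and monocyte markers it was 42.4% and 57.6% with vehicle against 14.3% and 6.42% with BT2. At 24 h it was 20.4% and 26.03% of the neutrophil sum with vehicle and 9.42% and 9.92% with BT2. The part of neutrophil RNA in the 4 h difference was not tested.

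Plat, the tissue-type activator released by endothelium, was not called for BT2 at either time. Its level was 200.4 and 151.9 CPM with vehicle and 159.1 and 138.7 CPM with BT2 at 4 h, which overlap. At 24 h it was 86.6 and 56.9 CPM with vehicle and 109.7 and 103.4 CPM with BT2. The 24 h difference of 0.57 ± 0.21 had an edgeR adjusted p of 0.0594 and a 95% interval of 0.09 to 1.04. Upper quartile scaling put it past the threshold, at an adjusted p of 0.0493, as did DESeq2, at 0.0254.

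F3, the tissue factor gene that starts coagulation, was the 1 gene of the 9 whose BT2 effect differed between the times. It stood at 61.7 and 66.5 CPM with vehicle and 35.2 and 33.1 CPM with BT2 at 4 h. At 24 h the values were 22.8 and 16.0 CPM with vehicle and 29.6 and 24.1 CPM with BT2. BT2 was below vehicle at 4 h and above it at 24 h, each without overlap. The 4 h change was -0.91 ± 0.18 (edgeR adjusted p = 0.017), a 1.88-fold difference, and the 24 h change of 0.46 ± 0.18 was not called (edgeR adjusted p = 0.0675). The difference of the effects was 1.37 ± 0.25 on the log2 scale (edgeR adjusted p = 0.0246). That call was lost without vehicle replicate 2 or either BT2 replicate of 4 h, and without vehicle replicate 2 or BT2 replicate 1 of 24 h, with adjusted p up to 0.0958 and values from 1.14 to 1.65. The 4 h call was lost without vehicle replicate 2 or either BT2 replicate of that time (adjusted p up to 0.0975).

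Among the genes that brake clotting, Thbd fell slightly at 4 h. It measured 282.2 and 277.3 CPM with vehicle and 201.6 and 196.3 CPM with BT2. The log2 fold change was -0.49 ± 0.13 (edgeR adjusted p = 0.0341). The 8 pan-endothelial markers summed to 2515 and 2083 CPM with vehicle and 2377 and 2308 CPM with BT2, which overlap, and 1 of the 8 was called lower. Leaving out any 1 of the 4 h libraries or of the 24 h BT2 libraries ended the call (adjusted p up to 0.152), as did upper quartile scaling (0.0505) and a fit of the 4 h libraries alone (0.0623). At 24 h Thbd stood at 144.0 and 111.4 CPM with vehicle and 131.1 and 135.3 CPM with BT2, which overlap. The difference was 0.06 ± 0.12, with a 95% interval of -0.23 to 0.35.

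Procr, the receptor that presents protein C to thrombomodulin, was lower with BT2 at 24 h. Its values were 29.3 and 25.8 CPM with vehicle and 15.01 and 11.6 CPM with BT2, and the log2 fold change was -1.05 ± 0.24 (edgeR adjusted p = 0.0106), a 2.07-fold difference. It equalled 2.23% and 2.29% of the summed endothelial markers with vehicle and 0.979% and 0.758% with BT2, while those markers summed to 1316 and 1126 CPM with vehicle and 1533 in each BT2 library. In nuclei at 24 h Procr was highest in smooth muscle-like and endocardial-like clusters. The 5 smooth muscle markers summed to 305 and 267 CPM in vehicle tissue and 361 CPM in each BT2 library at 24 h. Of these 5, 2 were called higher and 1 lower, where 18.9% and 20.7% of all genes were. The part of cell numbers in the Procr difference was not tested. The call was lost without vehicle replicate 1 or BT2 replicate 2 of 24 h (adjusted p up to 0.0656). At 4 h the values of 47.5 and 33.997 CPM with vehicle overlapped 42.2 and 28.1 CPM with BT2, for a difference of -0.21 ± 0.24 (edgeR adjusted p = 0.57). The effects at the 2 times differed by -0.84 ± 0.33, which was not called (edgeR adjusted p = 0.162).

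Tfpi, the inhibitor of the tissue factor trigger, was higher with BT2 at 24 h, at 94.8 and 89.8 CPM with vehicle and 118.4 and 132.1 CPM with BT2. The log2 fold change was 0.44 ± 0.13 (edgeR adjusted p = 0.0271). As a share of the endothelial markers Tfpi was 7.20% and 7.98% with vehicle and 7.72% and 8.62% with BT2, which overlap. In nuclei at 24 h, however, Tfpi was highest in the cardiomyocyte-like cluster. The 8 cardiomyocyte markers summed to 20447 and 20158 CPM in vehicle tissue and 45148 and 37028 CPM with BT2 at 24 h. The part of cell numbers in the Tfpi difference was not tested. Leaving out any 1 of the 24 h libraries ended the call (adjusted p up to 0.144). At 4 h the values were 113.6 and 111.7 CPM with vehicle and 165.1 and 128.4 CPM with BT2, without overlap, and the difference of 0.38 ± 0.13 was not called (edgeR adjusted p = 0.08). Without the low-count filter that 4 h difference was called, at an adjusted p of 0.0332.

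Vwf and its protease Adamts13 changed in opposite directions at 24 h. Vwf stood at 258.9 and 251.9 CPM with vehicle and 373.4 and 454.5 CPM with BT2, and the log2 fold change was 0.70 ± 0.17 (edgeR adjusted p = 0.0146), a 1.62-fold difference. Adamts13 stood at 7.39 and 7.71 CPM with vehicle and 3.80 and 4.08 CPM with BT2, a log2 fold change of -0.94 ± 0.25 (edgeR adjusted p = 0.0199). The groups did not overlap for either gene. Vwf was 19.7% and 22.4% of the endothelial marker sum with vehicle and 24.4% and 29.6% with BT2. Adamts13 was 0.562% and 0.684% of it with vehicle and 0.248% and 0.266% with BT2. The Vwf call was lost without either vehicle replicate or BT2 replicate 2 of 24 h (adjusted p up to 0.0815), and the Adamts13 call without any 1 of the 4 libraries of 24 h (up to 0.106).

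At 4 h neither gene of this pair was called. Vwf measured 270.9 and 207.1 CPM with vehicle and 254.5 and 196.6 CPM with BT2, which overlap, a difference of -0.08 ± 0.17. Adamts13 measured 2.61 and 2.24 CPM with vehicle and 2.70 and 4.57 CPM with BT2, a difference of 0.61 ± 0.30 (edgeR adjusted p = 0.19). The BT2 effect on Adamts13 at 24 h minus that at 4 h was -1.55 ± 0.39, just outside the threshold (edgeR adjusted p = 0.0514), and that on Vwf was 0.78 ± 0.24 (edgeR adjusted p = 0.0914). DESeq2 placed both past it, at adjusted p of 0.0293 and 0.0328.

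Between 4 h and 24 h in vehicle hearts, 6 of the 9 genes changed: Plau and Adamts13 rose and Plaur, Plat, F3 and Thbd fell, where 47.1% of all genes were called (23.3% higher and 23.8% lower). Plau rose 4.02-fold (log2 2.01 ± 0.28) and Adamts13 3.13-fold (log2 1.65 ± 0.28). F3 fell by 1.72 ± 0.18 on the log2 scale, Plaur by 1.56 ± 0.32, Plat by 1.29 ± 0.21 and Thbd by 1.13 ± 0.13. The edgeR adjusted p values of these 6 ran from 0.000229 for F3 to 0.0062 for Plaur. The Plaur call was lost without vehicle replicate 2 of 24 h (adjusted p = 0.0535) and without the filter on low counts (0.0602), and the other 5 calls held in every fit without 1 library. Vwf (0.10 ± 0.17), Procr (-0.56 ± 0.23) and Tfpi (-0.29 ± 0.13) were not called. Upper quartile scaling moved the median of all genes by 0.112 in this contrast and the share of calls that were higher from 49.5% to 58.8%. All 9 genes kept their direction under it.

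With BT2, 5 of the 9 changed over the same interval, against 23.3% of all genes (11.7% higher and 11.6% lower). Plau rose by 1.09 ± 0.30 on the log2 scale and Vwf by 0.88 ± 0.17. Plaur fell by 1.41 ± 0.34, Procr by 1.40 ± 0.24 and Thbd by 0.58 ± 0.13. The edgeR adjusted p values ran from 0.00851 for Procr to 0.0351 for Plau. Leaving out single libraries ended each of these calls at least once. The Plau call was lost without either BT2 replicate of 4 h, either vehicle replicate of 24 h or BT2 replicate 2 of 24 h (adjusted p up to 0.156), and in a fit of the 4 BT2 libraries alone (0.0689). The Plaur call was lost without BT2 replicate 1 of either time or vehicle replicate 2 of 24 h (up to 0.127), without the low-count filter (0.128) and in the fit of 4 libraries (0.0552). The Thbd call was lost without any 1 of the 4 BT2 libraries (up to 0.0737), the Vwf call without BT2 replicate 2 of either time (up to 0.0722) and the Procr call without BT2 replicate 2 of 24 h (0.0593). F3 (-0.35 ± 0.18), Plat (-0.48 ± 0.21), Adamts13 (0.10 ± 0.27) and Tfpi (-0.23 ± 0.13) were not called, though Plat was in the fit of 4 libraries (adjusted p = 0.0359). Upper quartile scaling moved the share of calls that were higher from 50.2% to 64.5% here. The 2 time contrasts use the same libraries as the BT2 contrasts and are not separate evidence.

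The 9 genes did not vary as 1 block over the 8 tissue libraries. Across libraries the log2 CPM of F3 and Thbd gave a Pearson r of 0.955, Plat and F3 0.899 and Plaur and Procr 0.796, while Plat and Adamts13 gave -0.88 and Plau and Tfpi -0.866. These coefficients describe 8 libraries in 4 groups and partly repeat the group differences. Among 10288 other genes with a mean of at least 5 CPM, those with the most similar profile were Nxt1 (r = 0.996) and Pf4 (0.995) for Plau, Ppan (0.997) for Plaur, Igfbp7 (0.991) for Plat and Tshz2 (0.984) for F3. The closest were Adgrg1 (0.989) for Thbd, Rsad2 (0.966) after Zfp322a (0.967) for Vwf, Tial1 (0.992) for Procr and Nubpl (0.985) for Tfpi. For Adamts13 it was Dnajc9 (0.981).

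Further genes of the clotting and plasmin pathways were followed by role. In the plasminogen system, 7 of 8 listed genes were tested, and BT2 raised 1 and lowered 2 at 4 h and raised 1 and lowered 3 at 24 h, where 16.4% and 39.5% of all genes were called. The subunits of the annexin A2 plasminogen receptor fell together. S100a10 changed by -0.86 ± 0.19 at 4 h and -1.45 ± 0.19 at 24 h, and Anxa2 by -0.94 ± 0.22 and -1.39 ± 0.22, all called, and both 24 h calls held without each library in turn. The 4 h calls were lost without either vehicle replicate or BT2 replicate 2 of 4 h, and for Anxa2 also without either vehicle replicate of 24 h (adjusted p up to 0.121 and 0.139). The receptor gene Plgrkt was higher at 4 h, at 3.16 and 4.14 CPM with vehicle and 7.85 and 7.11 CPM with BT2 (1.01 ± 0.20, edgeR adjusted p = 0.0186). That call was lost without vehicle replicate 2 or either BT2 replicate of 4 h (adjusted p up to 0.0743). Plasminogen itself (Plg) was at 0.312 and 0.456 CPM with vehicle and 0.949 and 1.59 CPM with BT2 at 24 h (1.73 ± 0.46, edgeR adjusted p = 0.0177), which rests on 9 to 39 counts per library. Lrp1, a receptor that clears activator and inhibitor complexes, was slightly lower at 24 h (-0.38 ± 0.12, edgeR adjusted p = 0.0379). Both calls were lost without either vehicle replicate of 24 h, that of Plg also without BT2 replicate 2 and that of Lrp1 without BT2 replicate 1 of 24 h (adjusted p up to 0.113 and 0.187).

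Of the 15 coagulation factors listed, 4 had enough counts to be tested (16.4% of all tested genes were called at 4 h and 39.5% at 24 h), with 1 lower at 4 h (F5, -2.20 ± 0.53), and none reached an unadjusted edgeR p under 0.05 at 24 h. F5 stood at 6.75 and 21.7 CPM with vehicle at 4 h and 3.81 and 2.596 CPM with BT2, and its call was lost without vehicle replicate 2 or either BT2 replicate of 4 h or either vehicle replicate of 24 h (adjusted p up to 0.19). Of the 3 anticoagulants tested of 9, Tfpi2, a relative of Tfpi, was lower at both times (-1.30 ± 0.18 and -1.39 ± 0.19). Serpine2, which inhibits thrombin and urokinase, was higher at 24 h at 39.8 and 35.1 CPM with vehicle and 62.5 and 78.1 CPM with BT2 (0.91 ± 0.16, edgeR adjusted p = 0.00321). The Tfpi2 calls and the Serpine2 call held without each library in turn. In nuclei at 24 h the Tfpi2 ratio was 1.59 (1.32 to 1.92), the opposite direction to tissue, and that of Serpine2 was 2.69 (2.39 to 3.03). The nuclear F5 ratio was 0.440 (0.393 to 0.492), beside a tissue change of -0.87 ± 0.47 at 24 h that was not called.

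Of the 4 protease-activated receptors, F2rl2 alone was called, lower at 4 h (-2.53 ± 0.63) and 24 h (-2.26 ± 0.65). At these times 16.4% and 39.5% of all genes were called. The 4 h call was lost without any 1 library other than vehicle replicate 1 of 4 h, the 24 h call without any 1 library of 24 h, and both without the filter on low counts (adjusted p 0.163 and 0.146). Among platelet receptors and granule proteins, 7 of 10 were tested. Of these, 1 was called at 4 h and 3 at 24 h, against 16.4% and 39.5% of all genes. Itgb3 was lower at 4 h (-1.36 ± 0.23), a call lost without vehicle replicate 2 or BT2 replicate 2 of that time (adjusted p up to 0.0743). Pf4 (-1.11 ± 0.19), Selp (-1.38 ± 0.44) and Gp6 (-1.27 ± 0.43) were lower at 24 h, of which only the Pf4 call held without each library in turn. In nuclei at 24 h the ratios were 0.502 (0.403 to 0.622) for Pf4 and 0.587 (0.523 to 0.658) for Gp6. For Selp the nuclear ratio was 1.02 (0.949 to 1.09), unlike tissue. The Selp and Gp6 calls were each lost without either BT2 replicate of 4 h, vehicle replicate 1 or BT2 replicate 1 of 24 h, and that of Selp also without BT2 replicate 2 and that of Gp6 without vehicle replicate 2 of 24 h (adjusted p up to 0.241 and 0.231). Of 4 further genes followed for their roles in endothelium, 1 was called at 4 h and 0 at 24 h, against 16.4% and 39.5% of all genes. Egr1 was lower at 4 h, at 457.6 and 675.5 CPM with vehicle and 150.5 and 192.1 CPM with BT2 (-1.73 ± 0.39, edgeR adjusted p = 0.0282). Klf2, Klf4 and Nos3 were not called at either time. The Egr1 call was lost without vehicle replicate 2 or either BT2 replicate of 4 h or either vehicle replicate of 24 h (adjusted p up to 0.161), and without the low-count filter (0.127).

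The nuclear libraries give the level of these RNAs by cluster of nuclei at 24 h. The share of free RNA in the droplets was not estimated for any gene. The level in a cluster may therefore include RNA from other cells. After filtering, 11372 vehicle and 10324 BT2 nuclei remained, with medians of 2465 and 2157 unique molecular identifiers (UMIs) per nucleus. With 1 library per group there is no test, and the 95% intervals below cover counting error only. Of the barcodes, 37 occur in both libraries. A doublet caller marked 1 and 0 nuclei, which is too few for it to have worked, so doublets were not removed. Clusters were rebuilt without the 9 genes and the other pathway genes, giving 23 clusters of which 14 could be named from marker genes, so cluster names are approximate.

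Among the named clusters, Vwf was highest in those of vessel and chamber lining type. Its level, over both libraries, was 3550 CPM in endocardial-like, 1972 CPM in venous endothelial-like and 713 CPM in the Dkk2-led endothelial-like nuclei. In cardiomyocyte-like nuclei it was 58.4 CPM and in Spp1-led macrophage and monocyte-like nuclei 30.1 CPM, classes not known for making it. The 3 endothelial intervals do not overlap (3390.2 to 3716, 1933 to 2012 and 690.1 to 736 CPM). In the 4 endothelial-like clusters together the BT2 to vehicle ratio was 1.04 (1.004 to 1.07), and over all nuclei 1.02 (0.997 to 1.05), beside 1.62-fold in tissue. Endothelial-like nuclei were 21.4% of the vehicle and 18.2% of the BT2 library, while endocardial-like nuclei, the highest in Vwf, were 0.545% and 1.79%. In tissue at 24 h, 3 of 5 endocardial markers were called higher with BT2, where 18.9% of all genes were. The 5 markers summed to 126 and 117 CPM with vehicle and 211 and 152 CPM with BT2. The part of these shares in the tissue difference was not tested.

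The plasminogen activator genes were highest in different clusters. Plau was highest in the Cd163-led (79.0 CPM) and Spp1-led (56.0 CPM) macrophage and monocyte-like clusters, which held 13.3% and 28.5% of its UMIs, and was 1.63 CPM in cardiomyocyte-like nuclei. Over all nuclei it fell from 15.5 to 9.64 CPM with BT2, a ratio of 0.620 (0.541 to 0.710). Within the Spp1-led cluster the ratio was 1.10 (0.848 to 1.42) and within the Cd163-led cluster 0.885 (0.617 to 1.26), both spanning 1. The Spp1-led cluster made up 13.9% of vehicle and 8.06% of BT2 nuclei, and the Cd163-led cluster 3.33% and 3.73%. Plat was highest in a small unnamed cluster led by the heat shock genes Hspa1a and Hsph1 (152 CPM, 108 to 208). It was next highest in lymphatic endothelial-like (85.8 CPM, 65.7 to 110) and Dkk2-led endothelial-like nuclei (49.4 CPM), against 2.50 CPM in cardiomyocyte-like nuclei. Its ratio over all nuclei was 1.07 (0.949 to 1.20).

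Plaur was highest, at 1635 CPM (1558 to 1715), in an unnamed cluster led by P2ry10 and Adgre4. The next clusters were the Spp1-led macrophage and monocyte-like (386 CPM) and neutrophil-like nuclei (359 CPM), whose intervals overlap. Over all nuclei Plaur went from 268.8 to 186.8 CPM, a ratio of 0.695 (0.674 to 0.717), smaller than the 4.10-fold tissue difference. It was lower with BT2 in neutrophil-like (0.666, 0.551 to 0.800), Spp1-led (0.685, 0.615 to 0.762) and cardiomyocyte-like nuclei (0.590, 0.492 to 0.706). In venous endothelial-like nuclei it was higher (1.501, 1.30 to 1.74), as in the Dkk2-led endothelial-like nuclei (1.21, 1.07 to 1.35). Free RNA was not estimated and doublets were not removed. These ratios, that of cardiomyocyte-like nuclei included, therefore do not show a change inside the named cells. Neutrophil-like nuclei were 7.18% of the vehicle and 2.82% of the BT2 library, and the P2ry10-led cluster 3.17% and 2.03%. The part of these shares in the all-nuclei ratio was not tested.

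F3 was highest in fibroblast-like nuclei. The Ltbp2-led cluster, at 33.2 CPM (30.2 to 36.4), held 49.1% of its UMIs, and the Aox3-led cluster was next at 20.03 CPM (16.0 to 24.8). Endothelial-like (2.07 CPM in the Dkk2-led cluster) and macrophage and monocyte-like nuclei (1.55 CPM in the Spp1-led cluster) were low. Over all nuclei F3 rose from 9.40 to 15.2 CPM with BT2, a ratio of 1.61 (1.41 to 1.84), and within the Ltbp2-led cluster the ratio was 1.35 (1.11 to 1.66). In the Aox3-led cluster it was 0.762 (0.479 to 1.23). The 2 fibroblast-like clusters grew from 10.2% to 15.2% and from 3.94% to 13.5% of nuclei, and the part of these shares in the all-nuclei ratio was not tested.

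The braking genes differed in the clusters where they were highest. Thbd was highest in the P2ry10-led cluster (93.9 CPM) and in venous endothelial-like nuclei (58.4 CPM), and lowest in Ltbp2-led fibroblast-like nuclei (4.28 CPM). Its ratio over all nuclei was 0.721 (0.642 to 0.808) and in the 4 endothelial-like clusters 0.903 (0.743 to 1.10). The P2ry10-led cluster made up 3.17% of vehicle and 2.03% of BT2 nuclei, and the part of this share was not tested. Procr was highest in smooth muscle-like (132 CPM, 111 to 155) and endocardial-like nuclei (112 CPM, 84.8 to 144), whose intervals overlap and whose order differs between the libraries, and stood at 18.9 CPM in Dkk2-led endothelial-like nuclei. Its ratio over all nuclei was 1.31 (1.11 to 1.54), the opposite direction to tissue, and it rested on 308 and 289 UMIs. That direction did not hold in every draw when nuclei were thinned to 1000 UMIs, with ratios of 1.14 and 0.978 in 2 random draws. In smooth muscle-like nuclei it measured 103 CPM with vehicle and 146 CPM with BT2, a ratio of 1.42 (0.969 to 2.11). In endocardial-like nuclei it measured 169 and 86.3 CPM, a ratio of 0.512 (0.296 to 0.892). Tfpi was highest in cardiomyocyte-like nuclei at 124 CPM (117 to 131), with 28.8% of its UMIs, then in venous endothelial-like nuclei at 99.9 CPM (91.2 to 109). Its ratio was 1.003 (0.944 to 1.06) over all nuclei, 0.839 (0.748 to 0.941) in cardiomyocyte-like and 0.736 (0.637 to 0.849) in the 4 endothelial-like clusters.

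**Figure D3:**
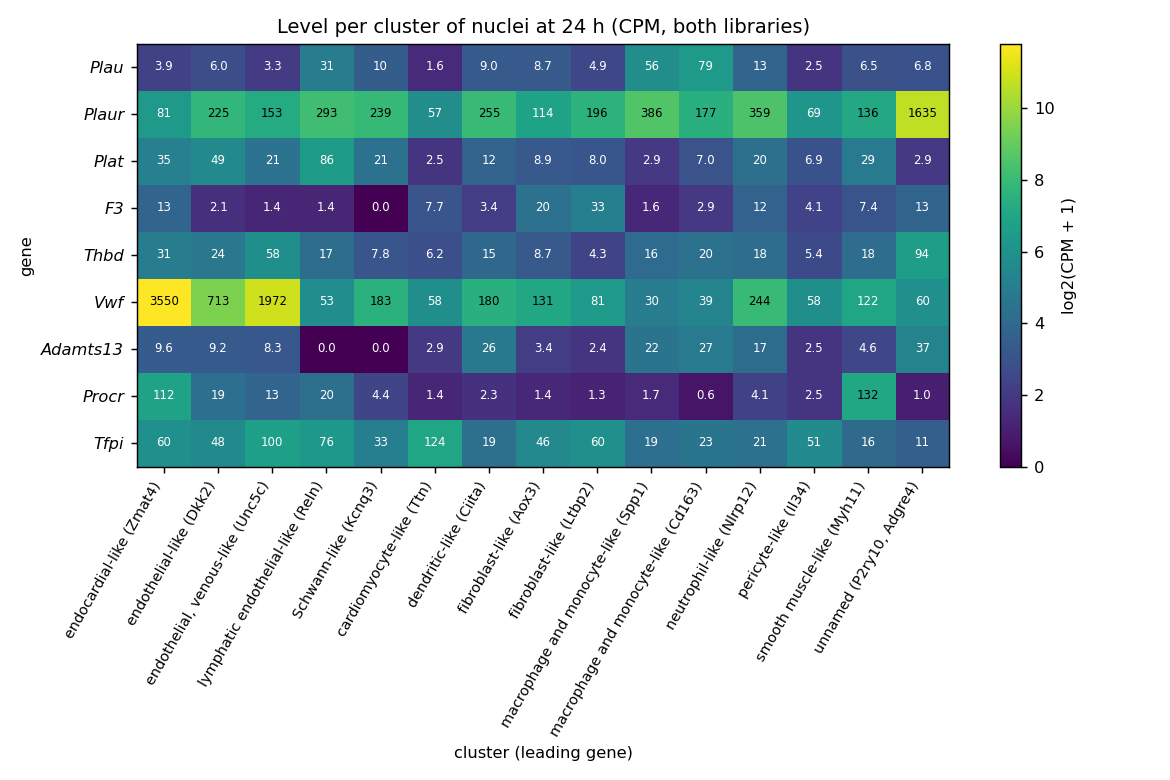
Level of the 9 genes (CPM, printed in each cell; colour is log2 of CPM plus 1) in the 14 named clusters and the unnamed P2ry10-led cluster of nuclei at 24 h, both libraries together. Of the clusters drawn, Vwf is highest in endocardial-like and venous endothelial-like nuclei, Plau in macrophage and monocyte-like, F3 in Ltbp2-led fibroblast-like and Tfpi in cardiomyocyte-like nuclei.

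Adamts13 had the largest nuclear difference of the 9 genes. The vehicle library held 750 UMIs (16.6 CPM, 15.5 to 17.9) in 639 of 11372 nuclei, and the BT2 library 43 UMIs (1.33 CPM, 0.961 to 1.79) in 43 of 10324 nuclei. The ratio was 0.0799 (0.0573 to 0.109), a 12.5-fold difference, beside 1.91-fold in tissue. It was the 1 gene of the 9 past a 2-fold ratio, against 5.72% of the 15944 features with at least 50 UMIs (2.52% higher and 3.2% lower). Of the 9462 features with at least as many UMIs, 1 had a ratio this low or lower, which is Adamts13 itself. It was lower with BT2 in 19 of 23 clusters, at 0 UMIs in both libraries in 3, and higher in 1, the heat shock cluster, on 0 and 1 UMIs.

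Adamts13 UMIs were fewer with BT2 in clusters of several cell classes. The share of these UMIs that is free RNA in the droplets was not estimated, so the clusters do not show which cells the RNA came from. The ratio was 0.0427 (0.00511 to 0.158) in Spp1-led macrophage and monocyte-like, 0.0256 (0.000635 to 0.150) in Dkk2-led endothelial-like, 0.101 (0.0116 to 0.399) in cardiomyocyte-like and 0.0964 (0.0246 to 0.275) in Ltbp2-led fibroblast-like nuclei. Each of these ratios rests on very few BT2 UMIs, as that library held 43 Adamts13 UMIs in all, and the intervals are wide. In these 4 clusters of the vehicle library the level ran from 4.60 CPM in cardiomyocyte-like to 30.8 CPM in Spp1-led nuclei. When every nucleus was thinned to 1000 UMIs, leaving out 1321 vehicle and 1202 BT2 nuclei, 1.66% of vehicle and 0.175% of BT2 nuclei in the first draw still held an Adamts13 UMI (5.62% and 0.417% unthinned). Among its neighbours in the RefSeq gene order, Rexo4 had a ratio of 1.17, LOC102548484 of 0.774 and Cacfd1 of 1.14. Slc2a6, the third gene beyond Adamts13, had 177 and 41 UMIs, a ratio of 0.323, and was also lower in tissue (log2 -1.85, edgeR adjusted p = 0.0029). The neighbours were looked up after the Adamts13 values were seen. No source used here says whether the counting used strand, so reads of overlapping or antisense transcripts may be included.

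**Figure D4:**
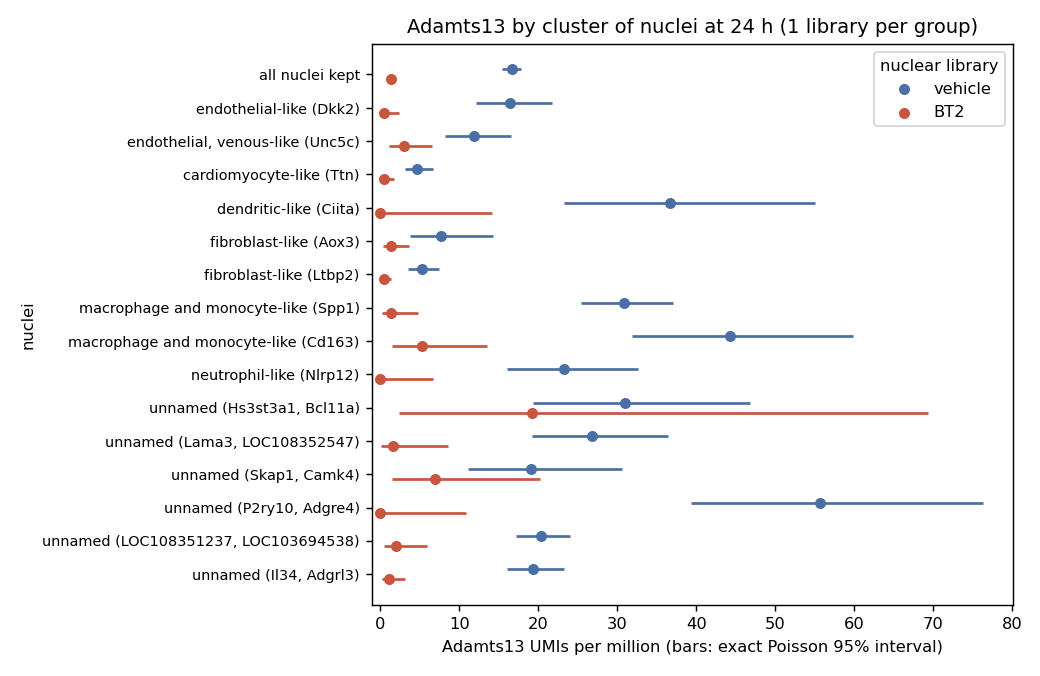
Adamts13 CPM in vehicle and BT2 nuclei at 24 h, for all nuclei and for each cluster with at least 10 Adamts13 UMIs, with exact Poisson 95% intervals. BT2 lies below vehicle in every row, with 16.6 against 1.33 over all nuclei.

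Tissue and nuclear ratios at 24 h are set side by side as measurements of different RNA pools and samples. Plau, Plaur and Adamts13 were lower with BT2 in both. F3 was 1.38-fold higher in tissue, not called, and at 1.61 in nuclei. Vwf and Tfpi, called higher in tissue, were at 1.02 and 1.003 in nuclei, and Procr, called lower in tissue, was at 1.31, a direction that turned in 1 of the 2 thinned draws (0.978). What these differing directions rest on was not tested.

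**Figure D5:**
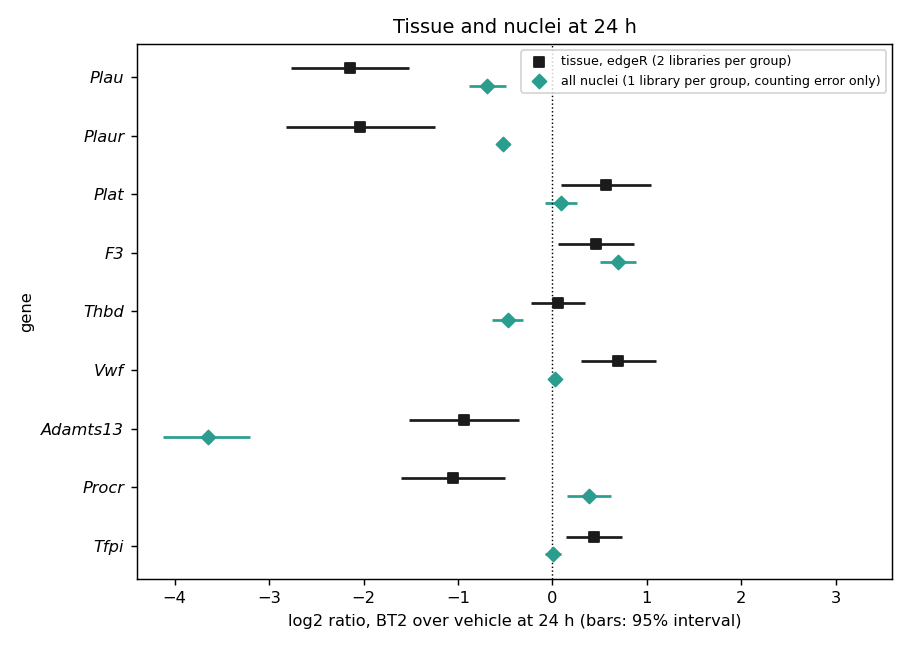
Log2 ratio of BT2 over vehicle at 24 h for the 9 genes, in tissue (squares, edgeR 95% interval, 2 libraries per group) and over all nuclei (diamonds, counting interval, 1 library per group). Adamts13 is lower in both and further from 0 in nuclei, while Procr lies below 0 in tissue and above 0 in nuclei before thinning (a thinned draw gave a ratio of 0.978).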

How the data were processed

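RNA was measured in 8 tissue libraries (stranded mRNA kit, per the labels' protocols) and 2 nuclear libraries. The deposited values are raw counts, of reads per gene in tissue and of UMIs in nuclei. Per the submitters' processing notes, Trim Galore, STAR, featureCounts, Cell Ranger and the build Rnor_6.0 were used, and Cell Ranger was 8.0.1 per the file headers. Tissue counts were filtered with filterByExpr, scaled with TMM factors and fitted with edgeR 4.0.16 (R 4.3.3), quasi-likelihood with robust dispersions and 1 mean for each of 4 groups, which left 4 residual degrees of freedom. The coefficient of variation between libraries beyond counting error came to 14.3%. With counts simulated for each time, 72% of planted 2-fold changes were found, and of 4-fold changes 93% at the early and 94% at the late time. False calls were 9 of 174 at the early and 14 of 180 at the late time. Nuclei were kept from 500 UMIs and 200 genes upward with a mitochondrial share up to 5%, and clustered with scanpy 1.11.5 (2000 variable genes, 30 components, 15 neighbours, Leiden resolution 0.5), leaving out 60 pathway genes. In these matrices the 2 mitochondrial rRNA genes carry all mitochondrial counts. A cluster was named at 3 or more detected markers, a marker score of at least 0.9 and a median doublet score up to 0.1, limits set after the clusters were seen. Intervals are exact Poisson and exact conditional intervals. All 9 genes were named in every comparison, other pathway genes where called, and the 2 most correlated genes (log2 CPM, prior count 0.5) were sought for each. The members and lists were chosen with earlier results of these data known. Alternatives were upper quartile scaling, DESeq2 1.42.0, no count filter, fits of 4 libraries, a replicate block and leaving out each library, and for nuclei other UMI, mitochondrial, depth and clustering settings. One pathway gene is not reported here and was left out of its list, but was kept out of the clustering with the others.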

Additional observations from a re-analysis of the deposited data

Results flagged for a closer look

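The effect of BT2 at 24 h minus that at 4 h passed the threshold (edgeR interaction term, adjusted p under 0.05) for 3 genes of the lists. For F3 the difference was 1.37 on the log2 scale, from -0.91 at 4 h to 0.46 at 24 h. For Plgrkt it was -1.38 (edgeR adjusted p = 0.0291), from 1.01 to -0.36, and for Lrp1 -0.77 (edgeR adjusted p = 0.0382), from 0.39 to -0.38. Of fits without 1 library, 3, 2 and 2 of 8 kept these calls for F3, Plgrkt and Lrp1.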

How the results depend on the processing

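No alternative other than leaving out a library changed the direction of any of the 9 genes in tissue. Without the low-count filter 1 of the 9 was called higher at 4 h, and for the difference between the times 2 were called higher, 1 lower and 1819 of all genes. DESeq2 also gave 2 higher and 1 lower for that difference. Fits of only 4 libraries called 621 genes at 4 h and, over time with BT2, 1 of the 9 higher, Vwf, with the Plau (adjusted p = 0.0689) and Plaur (0.0552) calls lost and Plat (0.0359) called lower. Upper quartile scaling moved the share of calls at 4 h that were higher from 40.7% to 51.1%.

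Leaving out each library in turn, the count of the 9 called lower at 4 h ran from 0 to 3 and that of all genes from 112 (without BT2 replicate 2 of 4 h) to 2796. At 24 h the ranges were 0 to 3 higher, 2 to 4 lower and 2982 (without BT2 replicate 1 of 24 h) to 6522 genes. For the difference they were 0 to 1 higher, 0 to 1 lower and 0 (without vehicle replicate 2 of 24 h) to 1443 genes. Over time in vehicle 4629 (without vehicle replicate 2 of 24 h) to 7100 genes were called. Over time with BT2 the ranges were 0 to 2 higher, 1 to 3 lower and 1025 (without BT2 replicate 2 of 24 h) to 4146 genes. Changes that were not called crossed 0 in such fits. At 4 h these were Vwf (-0.28 to 0.12) and Procr (-0.53 to 0.057), and at 24 h Thbd (-0.11 to 0.25). For the difference they were Plaur (-0.36 to 0.60) and Tfpi (-0.12 to 0.25), and over time Vwf in vehicle (-0.082 to 0.31) and Adamts13 with BT2 (-0.22 to 0.54). Fewer libraries leave fewer residual degrees of freedom, and a lone library is then assumed to vary like the others.

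The replicate numbers were not taken as pairs: deviations of same-numbered libraries correlated at 0.0174, 0.017, 0.0876 and -0.0273. With the replicate number as a block, 2248 genes were called at 4 h, 5824 at 24 h, 729 for the difference, 7011 over time in vehicle and 3129 over time with BT2. The block added Plat at 24 h (edgeR adjusted p = 0.0146) and over time with BT2 (0.0492) and Procr over time in vehicle (0.0125). It took away Selp at 24 h (0.0544) and the difference of Lrp1 (0.0538).

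In nuclei, the all-nuclei ratio of Thbd moved beyond its counting interval with a mitochondrial limit of 1% (0.641). Thinning keeps few UMIs of these genes, and a second random draw was added after seeing the data. In the first draw Plau (0.744), Plaur (0.662), F3 (1.33) and Vwf (1.05) moved over all nuclei, and Vwf in endothelial-like nuclei (1.11). In the second Thbd (0.623), Vwf (1.07) and, in endothelial-like nuclei, Vwf (1.15) moved, and Procr turned direction (0.978). Adamts13 stayed within its interval in both draws (0.102 and 0.0783).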
